A study of Homo sapiens with 6 samples.

Results

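The genes described here encode heterogeneous nuclear ribonucleoproteins (hnRNPs) and other proteins that decide which exons are kept in a messenger RNA, measured in RNA of HaCaT cells, an immortalised line of human skin keratinocytes. The members were listed by symbol and matched to the Ensembl identifiers of the data. The list held 45 genes, in 3 lists: 26 hnRNPs and their relatives, 8 regulators known for epithelial or tissue-specific exons, and 11 other splicing regulators. Of the 45, 44 were matched among the 19493 genes with values, and the same 44 passed the filter of at least 1 cRPKM in at least 2 libraries that kept 11926 genes for testing. TAF15 was not matched and has no value here. MBNL3 passed the filter through its UVC and control libraries, since it stood at 0.91 and 0.95 cRPKM with active photolyase.

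The study asked how UV damage and its repair affect splicing, per the series title. Its 6 libraries fell into 3 groups of 2: cells given 15 J/m2 of UVC at 254 nm whose photolyase was active through 2 h of white light (active photolyase), cells given the same dose with the photolyase inactive (UVC), and untreated cells with the photolyase inactive (control). All 3 groups carried the photolyase of the marsupial Potorous tridactylus, an enzyme that uses visible light to split cyclobutane pyrimidine dimers, the main DNA lesion made by UVC. Irradiated cells were harvested 6 h after UVC. Of the irradiated cells only the active photolyase group received white light, so light and repair cannot be told apart there. No harvest time and no hours of light are recorded here for control, so a difference in either could lie in the comparisons with control. Whether the replicates were separate cultures is not in the labels, so the p-values here reflect the spread of the libraries alone, and that spread could be technical. The values are per gene, and splicing itself was not analysed here.

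As background, hnRNPs coat nascent transcripts and many of them silence exons, often in competition with SR proteins. Tissue regulators such as the RBFOX, MBNL, CELF, QKI and ESRP proteins raise or lower the use of an exon according to where they bind beside it. In keratinocytes and other epithelia the ESRP proteins maintain the epithelial forms of receptors and adhesion proteins, and many splicing regulators also control their own transcripts.

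Total counts ran from 57669389 to 70005705 per library. The 44 members took 1.00 and 1.03% of counts with active photolyase, 0.840 and 0.850% after UVC, and 0.914 and 0.924% in control. Counts of a member in a library ran from 166 (MBNL3) to 86824 (HNRNPK). Levels below are scaled cRPKM, the deposited corrected RPKM (cRPKM) divided by a library factor from the trimmed mean of M values (TMM). That factor was 0.954 and 0.957 with active photolyase, 1.18 in both UVC libraries, and 0.886 and 0.884 in control. TMM sets the bulk of genes at no change, so every change is relative to that bulk and bears in no way on the total RNA of a cell, and fewer cells of a kind cannot be told apart from less RNA per cell. With library totals in its place the median change of all genes moved to 0.42 for UVC against control, -0.34 for active photolyase against UVC and 0.12 for active photolyase against control, and each member whose direction or call depends on that scaling is named beside its values. The annotation names pseudogenes of 17 members (74 of HNRNPA1, 16 of HNRNPA3, 9 of HNRNPC, 5 of HNRNPK and 1 to 4 of each of the others) and exons overlapping another gene for 24 members, so reads of these may be shared. All 9 keratinocyte markers were tested, and their summed level was 10420 and 10590.0 scaled cRPKM with active photolyase, 9249 and 9011 after UVC, and 11200.0 and 10580.0 in control. KRT5 (3156 and 3101 after UVC) and KRT14 (4975 and 4787) made up most of that sum. In log2 fold change for UVC against control, KRT5 (0.32) and KRT15 (0.40) rose and ITGB4 (0.14) was not called. KRT14 (-0.28), TP63 (-1.67), DSG3 (-2.94), ITGA6 (-1.93), LAMB3 (-1.42) and COL17A1 (-0.50) fell. Of the markers of other cells, 1 of 7 for melanocytes, 2 of 9 for fibroblasts, 4 of 11 for immune cells and 1 of 4 (3 matched) for endothelium passed the filter, TYR, MS4A1 and CD1A were listed at 0 in every library, and the summed immune markers lay at 189 and 199 with active photolyase, 182 and 183 after UVC, and 146 and 133 in control. The summed fibroblast markers lay at 10.2 and 9.74 with active photolyase, 8.58 and 8.78 after UVC, and 7.46 and 8.61 in control, and the melanocyte markers at 1.49 and 1.35, 1.74 and 1.49, and 2.19 and 2.25 in the same order. The endothelial markers lay at 3.11 and 3.35 with active photolyase, 1.07 and 0.989 after UVC, and 4.69 and 4.65 in control. Most of the immune sum was CD74 (128 and 133 after UVC) and CD68 (50.2 and 47.2 after UVC). The part of these markers in the results was not tested. Mitochondrially encoded genes took 4.09 and 3.21% of counts with active photolyase, 5.13 and 5.28% after UVC, and 3.32 and 3.92% in control.

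With TMM factors, most of these regulators were lower after UVC and most were higher again when the photolyase was active. For UVC against control, 34 of the 44 members fell and 7 rose by edgeR's quasi-likelihood test at an adjusted p under 0.05, beside 43.1% of all tested genes called lower and 42.5% called higher (85.6% in either direction). Falls of at least 2-fold numbered 8 and rises of that size 1, beside 18.6% and 9.89% of all genes. For active photolyase against UVC, 34 rose and 4 fell, beside 39.2% and 39.9% of all genes (79.1% in either direction), and 8 rose at least 2-fold, beside 14% of all genes, while 0 fell that far, beside 1.37%. For active photolyase against control, 17 rose and 18 fell, beside 33% and 32.9% (65.8% in either direction), and 0 members changed 2-fold in either direction, beside 4.06% higher and 2.02% lower. The 3 comparisons share libraries, so their counts are given side by side and are not independent of each other.

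The calls held to different degrees under the other scaling. For UVC against control, 22 members were lower and 7 higher under both TMM factors and library totals, beside 29.7% and 42.5% of all tested genes. Between active photolyase and UVC, 23 were higher and 4 lower under both, beside 27.8% and 39.9%. Between active photolyase and control, 17 were higher and 12 lower under both, beside 33% and 23.8%. With library totals taken alone, 59.5% of all genes were called higher and 29.7% lower for UVC against control, 27.8% and 58.3% between active photolyase and UVC, and 43.9% and 23.8% between active photolyase and control. The adjusted p of a called member was at most 0.00684, 0.0296 and 0.0299 in the 3 comparisons in that order, and it was at most 1.96e-05 for the 25 members with a change of at least 0.5 on the log2 scale between UVC and control. Values after ± in log2 fold changes are standard errors (SE), over 2 libraries a group.

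**Figure D1:**
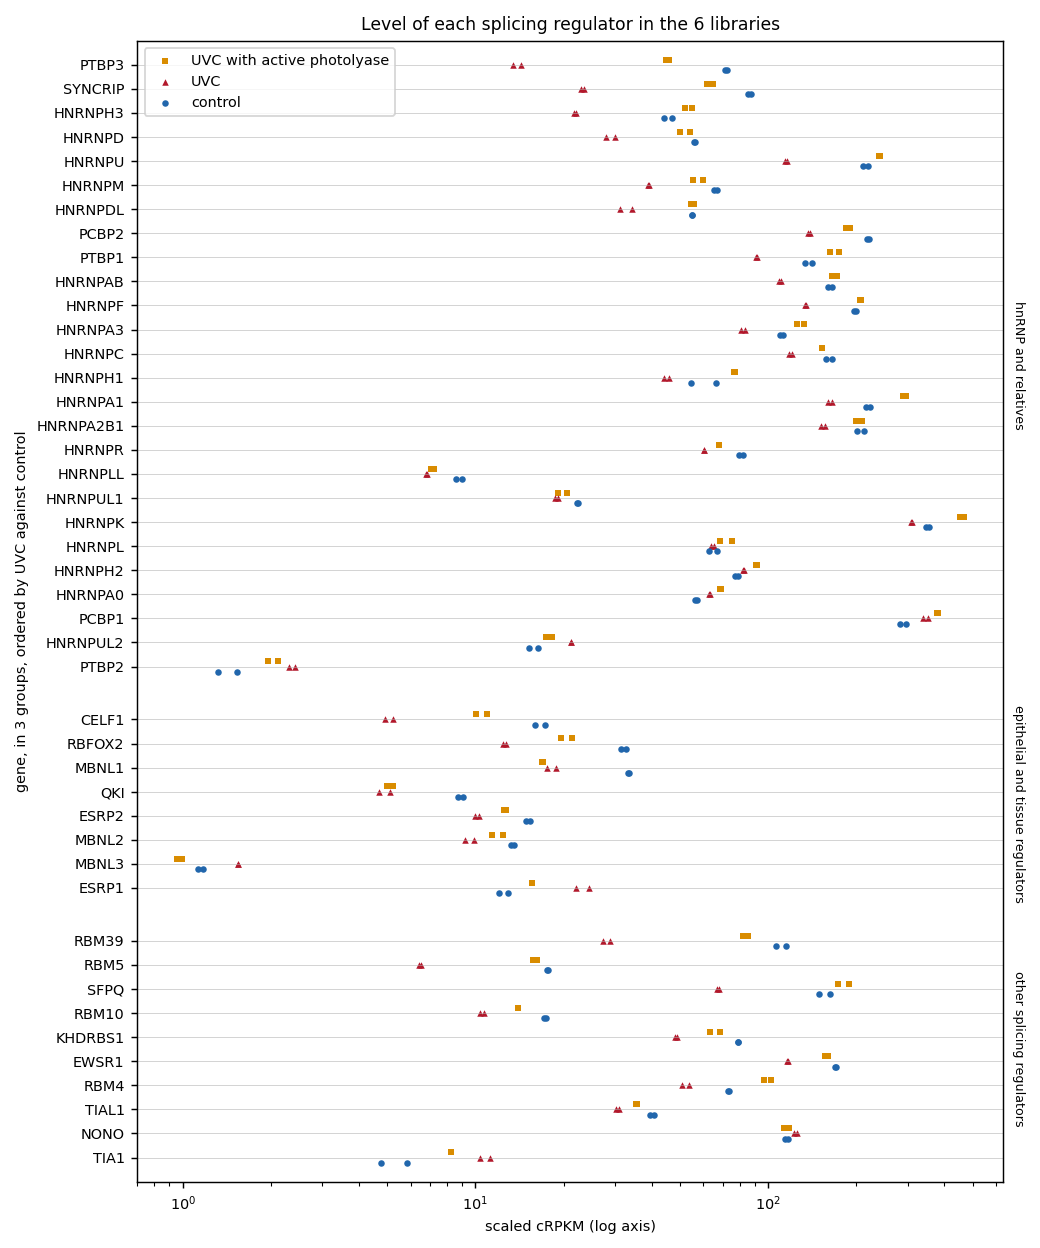
Level of each of the 44 matched members in each of the 6 libraries, in scaled cRPKM on a log axis, with 1 row per gene and the genes ordered within their list by the change of UVC against control. Squares are active photolyase libraries, triangles UVC libraries and circles control libraries. PTBP3, SYNCRIP, RBM39, CELF1 and RBFOX2 have UVC triangles far to the left of the circles, while ESRP1, TIA1 and PTBP2 have them to the right.

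The 3 lists differed in how far their members stood from control once the photolyase was active. Among the 26 hnRNPs, 20 fell and 4 rose for UVC against control, 22 rose and 1 fell for active photolyase against UVC, and 13 rose and 7 fell for active photolyase against control. Among the 8 epithelial and tissue regulators, 6 fell and 2 rose, then 4 rose and 2 fell, and for active photolyase against control 1 rose and 6 fell. Of all genes, 43.1% fell and 42.5% rose, then 39.2% rose and 39.9% fell, and for active photolyase against control 33% rose and 32.9% fell. The median log2 fold change of the hnRNPs was -0.43, 0.56 and 0.11 in the order UVC against control, active photolyase against UVC, and active photolyase against control. That of the epithelial and tissue regulators was -0.72, 0.19 and -0.45, that of the other regulators -0.62, 0.44 and -0.12, and that of all tested genes 0.0041, -0.0375 and 0.0115. These are descriptions of the lists, with no test of 1 list against another. With library totals the median of the tissue regulators for active photolyase against UVC changed sign, at -0.11. For UVC against control it was then -0.305, that of the hnRNPs -0.016 and that of all genes 0.42. Under both scalings 11 hnRNPs fell and 4 rose for UVC against control, beside 29.7% and 42.5% of all genes. For active photolyase against UVC 15 hnRNPs rose and 1 fell under both, beside 27.8% and 39.9%. The tissue regulators had 5 falls and 2 rises, then 2 rises and 2 falls, under both.

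The distance between hnRNPs and tissue regulators was also taken within each library, where the scaling of the library nearly cancels. The mean of log2(cRPKM + 1) over the 26 hnRNPs minus that over the 8 tissue regulators was 2.91 and 2.95 with active photolyase, 2.58 and 2.56 after UVC, and 2.48 and 2.49 in control. The active photolyase libraries had the widest distance and the 3 groups did not overlap. In summed scaled cRPKM the hnRNPs reached 3299 and 3382 with active photolyase, 2272 and 2300.0 after UVC, and 3041 and 3044 in control. The tissue regulators summed to 94.9 and 93.3 with active photolyase, 83.0 and 87.4 after UVC, and 133 in both control libraries. The hnRNP sum with active photolyase thus lay above control, and the tissue regulator sum lay below it. Unlike the distance, these sums are divided by the TMM factors, which were 1.18 after UVC and 0.886 and 0.884 in control. The lower hnRNP sum after UVC than in control therefore depends on that scaling. With 2 libraries a group, an exact permutation test of such a value cannot go below p = 0.33, so none is given.

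**Figure D2:**
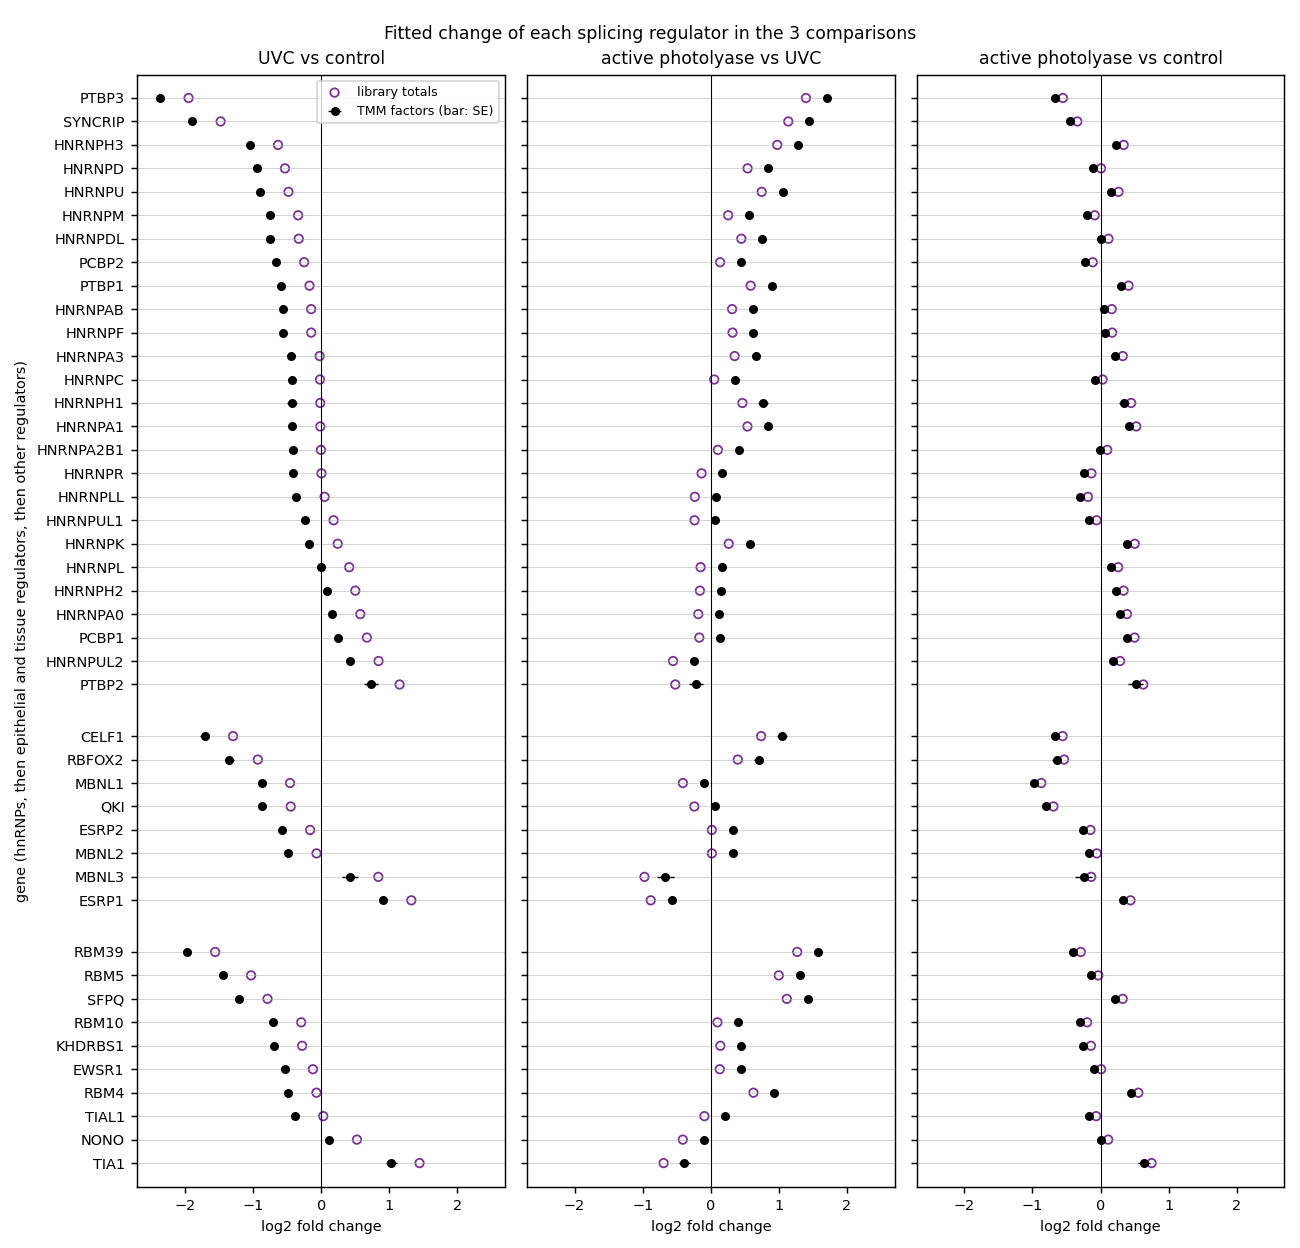
Fitted log2 fold change of each of the 44 members for UVC against control, active photolyase against UVC, and active photolyase against control, 1 panel each, with hnRNPs at the top, then epithelial and tissue regulators, then other regulators. Filled points are changes with TMM factors and their bars are 1 SE, and open points are changes with library totals. PTBP3 has the largest fall after UVC (-2.37) and the largest rise with active photolyase against UVC (1.70), and MBNL1 the largest fall for active photolyase against control (-0.98).

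The polypyrimidine tract binding (PTB) family held members that moved in opposite directions. PTBP1, which represses exons beside pyrimidine-rich tracts, had 163 and 175 scaled cRPKM with active photolyase, 91.6 and 90.6 after UVC, and 134 and 141 in control. PTBP3 (ENSG00000119314), a paralogue with the same kind of RNA-binding domains, had 44.7 and 45.9 with active photolyase, 13.5 and 14.4 after UVC and 71.2 and 72.3 in control, in scaled cRPKM. PTBP2, the paralogue known from neurons, whose transcript is itself a target of PTBP1, had 2.12 and 1.95 scaled cRPKM with active photolyase, 2.30 and 2.42 after UVC, and 1.32 and 1.53 in control. The UVC libraries were thus the lowest for PTBP1 and PTBP3 and the highest for PTBP2, and in none of these genes did the 3 groups overlap. The log2 fold changes of PTBP3 were -2.37 ± 0.06 for UVC against control, 1.70 ± 0.05 for active photolyase against UVC and -0.66 ± 0.05 for active photolyase against control, the first of which is 5.15-fold lower. Those of PTBP1 were -0.59 ± 0.06, 0.89 ± 0.06 and 0.30 ± 0.05 in the same order. PTBP2 rose by 0.73 ± 0.11 for UVC against control and by 0.52 ± 0.11 for active photolyase against control, from a level near the filter, and its change for active photolyase against UVC was not called (-0.22 ± 0.10, adjusted p = 0.0652 by edgeR), though it was called lower there with library totals (-0.52). PTBP3 made up 21.3 and 20.6% with active photolyase, 12.5 and 13.4% after UVC and 34.6 and 33.7% in control of the family's summed cRPKM, a share that does not depend on the scaling of the library. PTBP1 took 77.7 and 78.5% with active photolyase, 85.3 and 84.4% after UVC and 64.8 and 65.6% in control of it.

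The promoters of the PTB genes are printed because these paralogues, of like protein, moved apart. The sequences are RefSeq's on GRCh38.p14, from 250 bases before to 50 bases after the annotated start, 5′ to 3′ on the gene's own strand, while the reads were aligned to hg19. The window of PTBP1 is chr19:797202-797501 on the plus strand, that of PTBP2 chr1:96722388-96722687 on the plus strand and that of PTBP3 chr9:112332977-112333276 on the minus strand. Capitals mark the GC box, spelled GGGCGG, and the motif spelled CCAAT, each on either strand. The TATA box, spelled TATAAA, was searched on both strands as well. So was the cyclic AMP response element, whose letters are TGACGTCA. The motifs did not overlap each other in these windows.
PTBP1: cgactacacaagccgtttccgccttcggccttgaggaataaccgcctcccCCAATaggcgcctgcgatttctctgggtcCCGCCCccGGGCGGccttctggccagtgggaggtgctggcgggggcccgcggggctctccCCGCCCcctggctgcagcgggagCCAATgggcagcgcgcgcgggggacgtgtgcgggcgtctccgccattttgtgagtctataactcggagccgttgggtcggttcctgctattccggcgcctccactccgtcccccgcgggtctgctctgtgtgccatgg
PTBP2: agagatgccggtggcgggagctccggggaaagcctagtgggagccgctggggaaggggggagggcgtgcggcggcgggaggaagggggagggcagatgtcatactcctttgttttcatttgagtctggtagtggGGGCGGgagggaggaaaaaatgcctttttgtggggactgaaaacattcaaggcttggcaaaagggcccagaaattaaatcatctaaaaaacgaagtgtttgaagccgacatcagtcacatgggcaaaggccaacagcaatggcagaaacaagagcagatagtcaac
PTBP3: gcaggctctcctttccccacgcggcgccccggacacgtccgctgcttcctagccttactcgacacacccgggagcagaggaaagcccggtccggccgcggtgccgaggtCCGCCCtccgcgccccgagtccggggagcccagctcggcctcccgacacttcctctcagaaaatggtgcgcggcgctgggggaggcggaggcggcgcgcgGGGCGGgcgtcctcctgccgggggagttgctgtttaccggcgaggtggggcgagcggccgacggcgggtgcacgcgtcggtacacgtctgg
The window of PTBP1 held 3 GC boxes and 2 matches to CCAAT with 69.3% G and C, that of PTBP2 1 GC box with 54.0%, and that of PTBP3 2 GC boxes with 74.0%. Of the 37 members with a window in the table, 26 (70.3%) held a GC box, against 70.2% of the windows of tested genes and 44.6% of all 27305. The CCAAT motif was in 18 of the 37 (48.6%), against 37.1% of tested genes and 35.7% of all, and TGACGTCA was in 0 of the 37, against 3.3% and 2.0%. These are matches of letters and describe the windows only.

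HNRNPR and SYNCRIP (hnRNP Q) are close relatives that bind messenger RNA in nucleus and cytoplasm. SYNCRIP (ENSG00000135316) had 62.0 and 64.7 scaled cRPKM with active photolyase, 23.6 and 23.0 after UVC, and 85.7 and 87.5 in control. HNRNPR had 68.2 and 68.1 with active photolyase, 60.5 and 60.6 after UVC and 82.3 and 79.3 in control, in scaled cRPKM. SYNCRIP was much lower in both UVC libraries than in any other, with log2 fold changes of -1.89 ± 0.05 for UVC against control, 1.44 ± 0.05 for active photolyase against UVC and -0.45 ± 0.05 for active photolyase against control. HNRNPR moved little beside it, at -0.41 ± 0.05 for UVC against control and 0.17 ± 0.05 for active photolyase against UVC, and with library totals these values were 0.003 and -0.14, so that their direction depended on the scaling. HNRNPR also fell for active photolyase against control, by 0.24 ± 0.05. The share of HNRNPR in the summed cRPKM of the pair was 52.4 and 51.3% with active photolyase, 72.0 and 72.5% after UVC and 49.0 and 47.5% in control. The share was higher in each UVC library than in any other.

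The hnRNP A proteins are abundant exon silencers. HNRNPA1 had 289 and 296 scaled cRPKM with active photolyase, 161 and 165 after UVC, and 223 and 216 in control, and its log2 fold changes were -0.43 ± 0.05 for UVC against control, 0.84 ± 0.05 for active photolyase against UVC and 0.41 ± 0.05 for active photolyase against control. HNRNPA0, a family member without introns in its coding transcripts that binds AU-rich RNA, had 68.4 and 69.1 with active photolyase, 62.9 and 63.5 after UVC and 57.0 and 56.4 in control, in scaled cRPKM. HNRNPA3, a close relative of HNRNPA2B1, had 126 and 133 scaled cRPKM with active photolyase, 80.8 and 83.2 after UVC, and 110.2 and 113 in control. In HNRNPA1 and HNRNPA3 the UVC libraries were the lowest and in HNRNPA0 the control libraries were. HNRNPA2B1 and HNRNPA3 had log2 fold changes of -0.42 ± 0.05 and -0.44 ± 0.05 for UVC against control and 0.41 ± 0.05 and 0.66 ± 0.05 for active photolyase against UVC. HNRNPA3 rose by 0.21 ± 0.05 for active photolyase against control, where HNRNPA2B1 was not called (-0.01 ± 0.05). HNRNPA1 in both active photolyase libraries lay above every control library. The falls of HNRNPA1, HNRNPA2B1 and HNRNPA3 after UVC were calls with TMM factors only, since with library totals they came to -0.01, 0.00 and -0.02 to 2 decimals. The rise of HNRNPA2B1 for active photolyase against UVC was likewise not called with library totals (0.10), while those of HNRNPA1 and HNRNPA3 were called under both. HNRNPA0 rose for UVC against control (0.16 ± 0.05, a call lost with no filter on low values) and for active photolyase against control (0.28 ± 0.05), and its value for active photolyase against UVC, 0.12 ± 0.05, was -0.18 with library totals. The annotation lists 74 pseudogenes named after HNRNPA1 and 16 after HNRNPA3, and the effective length behind the cRPKM of HNRNPA1 was 11.9% of its annotated exon bases, so reads of these genes may have been shared with copies and their levels are uncertain.

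HNRNPD (AUF1) and its relatives HNRNPDL and HNRNPAB bind AU-rich RNA and act in decay as well as splicing. HNRNPD had 50.1 and 54.3 scaled cRPKM with active photolyase, 28.0 and 30.0 after UVC, and 55.7 and 56.5 in control. HNRNPAB had 165 and 172 with active photolyase, 111 and 109 after UVC and 165 and 161 in control, in scaled cRPKM. In both genes the UVC libraries were the lowest. The log2 fold changes of HNRNPD were -0.95 ± 0.06 for UVC against control and 0.85 ± 0.06 for active photolyase against UVC, those of HNRNPDL -0.75 ± 0.05 and 0.75 ± 0.05, and those of HNRNPAB -0.57 ± 0.05 and 0.62 ± 0.05. These 6 changes were called under both scalings. None of the 3 genes was called for active photolyase against control, at -0.10 ± 0.06, 0.01 ± 0.05 and 0.05 ± 0.05, although HNRNPAB was called higher with library totals (0.16).

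The hnRNP F and H proteins bind runs of G. HNRNPH3 had 55.0 and 51.8 scaled cRPKM with active photolyase, 22.1 and 21.8 after UVC, and 44.1 and 47.1 in control. HNRNPH2 had 91.9 and 90.6 with active photolyase, 81.8 and 83.0 after UVC and 78.8 and 77.0 in control, in scaled cRPKM. HNRNPH3 was at less than its control level in both UVC libraries and above it in both active photolyase libraries, with log2 fold changes of -1.05 ± 0.05 for UVC against control, 1.28 ± 0.05 for active photolyase against UVC and 0.23 ± 0.05 for active photolyase against control. HNRNPF changed by -0.56 ± 0.05 for UVC against control and 0.62 ± 0.05 for active photolyase against UVC, under both scalings, and was called higher for active photolyase against control with library totals only (0.17). HNRNPH1 had 76.8 and 76.3 scaled cRPKM with active photolyase, 45.7 and 43.9 after UVC and 54.6 and 66.5 in control, the widest spread of control libraries among the family. Its fall of 0.43 ± 0.07 after UVC was -0.01 and not called with library totals, while its rise of 0.77 ± 0.07 for active photolyase against UVC was called under both. HNRNPH2 was not called for UVC against control (0.08 ± 0.05), where library totals called it higher (0.50), and it rose by 0.23 ± 0.05 for active photolyase against control, and its value for active photolyase against UVC, 0.15 ± 0.05, was -0.16 with library totals. HNRNPH2 shares exons with the readthrough gene RPL36A-HNRNPH2, so its reads may be divided between them.

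HNRNPK and the PCBP proteins bind runs of C. HNRNPK, the highest member in active photolyase and in control, had 452 and 467 scaled cRPKM with active photolyase, 311 and 308 after UVC, and 346 and 354 in control. PCBP1, an intronless gene and the highest member after UVC, had 381 and 378 with active photolyase, 339 and 351 after UVC and 297 and 283 in control, in scaled cRPKM. PCBP2 had 185 and 189.9 scaled cRPKM with active photolyase, 137 and 139 after UVC, and 222 and 217 in control. The 3 genes differed in order: the active photolyase libraries were the highest for HNRNPK and PCBP1, and the control libraries were the highest for PCBP2. PCBP2 fell by 0.67 ± 0.05 for UVC against control and rose by 0.44 ± 0.05 for active photolyase against UVC, and its -0.23 ± 0.05 for active photolyase against control was called with TMM factors only. PCBP1 rose by 0.25 ± 0.05 for UVC against control and 0.39 ± 0.05 for active photolyase against control, and its 0.14 ± 0.05 for active photolyase against UVC became -0.17 with library totals. HNRNPK rose by 0.57 ± 0.05 for active photolyase against UVC and by 0.39 ± 0.05 for active photolyase against control, but its -0.18 ± 0.05 for UVC against control became 0.24 with library totals. PCBP1 made up 37.4 and 36.5% with active photolyase, 43.1 and 44.0% after UVC and 34.3 and 33.1% in control of the summed cRPKM of the 3 genes, and PCBP2 18.2 and 18.4% with active photolyase, 17.4 and 17.4% after UVC and 25.6 and 25.4% in control. PCBP1 overlaps its antisense gene PCBP1-AS1, and no source used here says whether counting used strand.

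HNRNPU, a chromatin-associated hnRNP, had 238 and 241 scaled cRPKM with active photolyase, 116 and 115 after UVC, and 211 and 219.6 in control. Its relative HNRNPUL2 had 17.4 and 18.3 with active photolyase, 21.2 and 21.1 after UVC and 16.4 and 15.2 in control, in scaled cRPKM. They moved in opposite directions: HNRNPU fell by 0.90 ± 0.05 for UVC against control and rose by 1.05 ± 0.05 for active photolyase against UVC, while HNRNPUL2 rose by 0.43 ± 0.06 and fell by 0.25 ± 0.06. With active photolyase against control they changed by 0.15 ± 0.05 and 0.18 ± 0.06, calls that were lost without control replicate 1 for HNRNPU (0.13), without control replicate 2 for HNRNPUL2 (0.12), and for both with no filter on low values. HNRNPU made up 86.7 and 86.1% with active photolyase, 74.4 and 74.0% after UVC and 84.5 and 85.5% in control of the cRPKM of HNRNPU, HNRNPUL1 and HNRNPUL2. HNRNPUL2 shares exons with the readthrough gene HNRNPUL2-BSCL2. HNRNPUL1 changed by -0.24 ± 0.05 for UVC against control, 0.07 ± 0.05 for active photolyase against UVC and -0.17 ± 0.05 for active photolyase against control, and with library totals the first 2 were 0.18 and -0.24, and the last, -0.06, was not called.

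HNRNPL, which binds CA-rich RNA, was among the members that moved least. It had 68.7 and 75.1 scaled cRPKM with active photolyase, 63.6 and 65.3 after UVC, and 66.7 and 63.0 in control, with UVC and control libraries overlapping. Its log2 fold change for UVC against control was -0.01 ± 0.06 with TMM factors and 0.41 with library totals, and its 0.16 ± 0.06 for active photolyase against UVC became -0.15. HNRNPLL, its relative known from lymphocytes, had 7.07 and 7.24 with active photolyase, 6.79 and 6.81 after UVC and 9.01 and 8.55 in control, in scaled cRPKM, and fell by 0.29 ± 0.06 for active photolyase against control under both scalings. Its -0.37 ± 0.06 for UVC against control was 0.05 with library totals, and its 0.07 ± 0.06 for active photolyase against UVC, not called, was -0.23. HNRNPC, which binds runs of U, changed by -0.43 ± 0.05 for UVC against control and 0.36 ± 0.05 for active photolyase against UVC with TMM factors, neither of which was called with library totals (-0.02 and 0.05). HNRNPM changed by -0.76 ± 0.05 and 0.56 ± 0.05 in the same comparisons, called under both. HNRNPC was not called for active photolyase against control (-0.08 ± 0.05), and HNRNPM was called lower there (-0.20 ± 0.05) with TMM factors only.

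Among the epithelial regulators the paralogues ESRP1 and ESRP2, which both favour the epithelial exon of receptors such as FGFR2, moved in opposite directions. ESRP1 (ENSG00000104413) had 15.7 and 15.6 scaled cRPKM with active photolyase, 22.1 and 24.5 after UVC, and 12.9 and 12.01 in control. ESRP2 (ENSG00000103067) had 12.8 and 12.5 with active photolyase, 10.3 and 9.96 after UVC and 14.9 and 15.3 in control, in scaled cRPKM. ESRP1 was highest in the UVC libraries and ESRP2 lowest, with no overlap between groups in either. The log2 fold changes of ESRP1 were 0.91 ± 0.06 for UVC against control, -0.58 ± 0.06 for active photolyase against UVC and 0.33 ± 0.06 for active photolyase against control, and those of ESRP2 were -0.58 ± 0.05, 0.32 ± 0.05 and -0.26 ± 0.05 in the same order. The rise of ESRP2 for active photolyase against UVC was not called with library totals (0.01), while the other 5 changes were called under both scalings. ESRP1 made up 55.1 and 55.5% with active photolyase, 68.3 and 71.1% after UVC and 46.3 and 43.9% in control of the cRPKM of the pair. The ESRP1 share was thus above that of ESRP2 in UVC and active photolyase libraries and below it in both control libraries.

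The MBNL proteins compete with CELF1 for regulated exons in muscle and other tissues. MBNL1 had 16.8 and 17.0 scaled cRPKM with active photolyase, 17.5 and 18.8 after UVC, and 33.6 and 33.2 in control. MBNL3, the lowest of all members, had 0.954 and 0.993 with active photolyase, 1.54 and 1.55 after UVC and 1.17 and 1.13 in control, in scaled cRPKM. MBNL1 was not called between active photolyase and UVC (-0.10 ± 0.05, adjusted p = 0.0755 by edgeR), and with library totals it was called lower there (-0.41). Its fall was 0.88 ± 0.05 for UVC against control and 0.98 ± 0.05 for active photolyase against control, which is 1.97-fold lower and the largest fall of a member in that comparison. MBNL3 rose by 0.42 ± 0.12 for UVC against control and fell by 0.67 ± 0.12 for active photolyase against UVC, at 166 to 278 reads a library. MBNL2 changed by -0.49 ± 0.06, 0.32 ± 0.06 and -0.17 ± 0.06 in the 3 comparisons, none of which was called with library totals (-0.07, 0.01 and -0.06). MBNL1 made up 57.6 and 56.0% with active photolyase, 62.0 and 62.3% after UVC and 69.6 and 69.8% in control of the family's cRPKM. MBNL1 overlaps the antisense gene MBNL1-AS1.

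CELF1, RBFOX2 and QKI all stayed below control with active photolyase. CELF1, which binds GU-rich RNA and acts in decay as well as splicing, had 10.9 and 10.02 scaled cRPKM with active photolyase, 5.22 and 4.92 after UVC, and 16.0 and 17.3 in control. RBFOX2, a regulator of epithelial and mesenchymal exons, had 21.4 and 19.5 with active photolyase, 12.5 and 12.7 after UVC and 32.6 and 31.5 in control, in scaled cRPKM. QKI, a STAR protein first known from myelin, had 4.99 and 5.22 scaled cRPKM with active photolyase, 4.67 and 5.10 after UVC, and 8.73 and 9.09 in control. For CELF1 and RBFOX2 the active photolyase libraries lay between the UVC and control libraries, whereas for QKI they overlapped the UVC libraries. The log2 fold changes of CELF1 were -1.71 ± 0.07 for UVC against control, 1.05 ± 0.07 for active photolyase against UVC and -0.67 ± 0.06 for active photolyase against control. Those of RBFOX2 were -1.35 ± 0.06, 0.70 ± 0.06 and -0.65 ± 0.06 in the same order, and all 6 changes of these 2 genes were called under both scalings. QKI fell by 0.87 ± 0.06 for UVC against control and 0.80 ± 0.06 for active photolyase against control, and its 0.06 ± 0.06 between active photolyase and UVC was not called and became -0.24 with library totals. The effective length of RBFOX2 was 12.7% of its annotated exon bases, so its cRPKM rests on part of the gene.

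Among the other regulators RBM39 had the largest change for UVC against control and for active photolyase against UVC. RBM39 (ENSG00000131051), a partner of the splice-site factor U2AF, had 85.4 and 82.3 scaled cRPKM with active photolyase, 27.3 and 28.9 after UVC, and 106 and 115 in control. Its log2 fold changes were -1.98 ± 0.06 for UVC against control, 1.57 ± 0.06 for active photolyase against UVC and -0.40 ± 0.06 for active photolyase against control, and the first is 3.93-fold lower. RBM5, known for exons of cell-death genes, had 16.2 and 15.7 with active photolyase, 6.51 and 6.41 after UVC and 17.7 and 17.6 in control, in scaled cRPKM. Its relative RBM10 had 13.9 and 14.0 scaled cRPKM with active photolyase, 10.7 and 10.4 after UVC, and 17.1 and 17.4 in control. RBM5 fell by 1.45 ± 0.05 for UVC against control and rose by 1.30 ± 0.05 for active photolyase against UVC, so that its active photolyase libraries stood just below control (-0.14 ± 0.05, a call with TMM factors only). RBM10 changed by -0.71 ± 0.05, 0.40 ± 0.05 and -0.31 ± 0.05 in the 3 comparisons, the second of which was not called with library totals (0.10). RBM4, which acts in alternative splicing and translation, had 102 and 97.1 with active photolyase, 53.8 and 50.6 after UVC and 73.2 and 73.4 in control, in scaled cRPKM, and its active photolyase libraries were the highest. It rose by 0.93 ± 0.06 for active photolyase against UVC and by 0.44 ± 0.06 for active photolyase against control, and its fall of 0.49 ± 0.06 after UVC was not called with library totals (-0.07). RBM4 shares exons with RBM14-RBM4 and overlaps RBM4B on the other strand, its effective length was 8.6% of its annotated exon bases, and RBM5 shares exons with RBM6, so these values are uncertain.

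The stress-granule proteins TIA1 and TIAL1, which help U1 to recognise weak splice sites, were a further pair that moved apart. TIA1 (ENSG00000116001) had 8.24 and 8.28 scaled cRPKM with active photolyase, 10.4 and 11.2 after UVC, and 4.76 and 5.85 in control. TIAL1 had 35.7 and 35.3 with active photolyase, 30.2 and 31.1 after UVC and 39.6 and 40.6 in control, in scaled cRPKM. TIA1 was highest after UVC, where TIAL1 was lowest, and in both genes the active photolyase libraries lay between the others. The log2 fold changes of TIA1 were 1.03 ± 0.08 for UVC against control, -0.39 ± 0.08 for active photolyase against UVC and 0.64 ± 0.08 for active photolyase against control, all called under both scalings. TIAL1 changed by -0.39 ± 0.05, 0.21 ± 0.05 and -0.17 ± 0.05 with TMM factors, but the first 2 became 0.03 and -0.10 with library totals and the last was no longer called (-0.06). TIA1 made up 18.8 and 19.0% with active photolyase, 25.6 and 26.5% after UVC and 10.7 and 12.6% in control of the pair's cRPKM. The annotation has an exon overlap of TIA1 with C2orf42 on the same strand, so reads of the overlap may be divided.

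The promoters of this pair are shown for the same reason, from the same table and with the same motifs in capitals, the TATA box on either strand included. The window of TIA1 is chr2:70248744-70249043 on the minus strand and that of TIAL1 chr10:119596915-119597214 on the minus strand, on GRCh38.p14.
TIA1: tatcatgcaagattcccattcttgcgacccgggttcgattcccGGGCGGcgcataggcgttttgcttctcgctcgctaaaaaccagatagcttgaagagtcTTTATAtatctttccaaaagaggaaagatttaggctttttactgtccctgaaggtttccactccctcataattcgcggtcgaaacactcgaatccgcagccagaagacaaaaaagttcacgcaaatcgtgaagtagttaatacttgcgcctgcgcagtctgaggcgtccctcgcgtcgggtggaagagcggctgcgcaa
TIAL1: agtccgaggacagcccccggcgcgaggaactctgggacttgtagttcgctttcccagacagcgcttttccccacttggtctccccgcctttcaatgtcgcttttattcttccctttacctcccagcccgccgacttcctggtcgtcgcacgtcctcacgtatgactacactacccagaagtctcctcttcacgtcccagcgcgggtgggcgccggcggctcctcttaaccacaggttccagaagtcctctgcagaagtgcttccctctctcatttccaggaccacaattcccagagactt
The TIA1 window held 1 GC box and 1 TATA box with 49.7% G and C, and the TIAL1 window held none of the 4 motifs with 58.0%. A TATA box was in 4 of the 37 member windows (HNRNPAB, HNRNPC, HNRNPD and TIA1), which is 10.8%, against 6.1% of the windows of tested genes and 12% of all. The presence of these letters does not show that a factor binds them.

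SFPQ and NONO are DBHS proteins of the paraspeckle that also act in repair of DNA breaks. SFPQ had 173 and 188 scaled cRPKM with active photolyase, 67.8 and 67.1 after UVC, and 149 and 162 in control. NONO had 113 and 118 with active photolyase, 126 and 123 after UVC and 117 and 114 in control, in scaled cRPKM. SFPQ was lowest in both UVC libraries and above control in both active photolyase libraries, with log2 fold changes of -1.21 ± 0.06 for UVC against control, 1.42 ± 0.06 for active photolyase against UVC and 0.22 ± 0.06 for active photolyase against control. The last of these was no longer called without active photolyase replicate 2 (0.16). NONO was called in none of the 3 comparisons, at 0.11 ± 0.05, -0.11 ± 0.05 and 0.00 ± 0.05, although with library totals it was called higher for UVC against control (0.53) and lower for active photolyase against UVC (-0.41). NONO made up 39.5 and 38.5% with active photolyase, 64.9 and 64.7% after UVC and 43.9 and 41.2% in control of the pair's cRPKM. The pair's larger share was thus NONO after UVC and SFPQ in the other groups.

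EWSR1, a FET protein, and KHDRBS1 (Sam68), a STAR protein regulated by signalling kinases, moved in the same directions after UVC. EWSR1 changed by -0.54 ± 0.05 for UVC against control and 0.44 ± 0.05 for active photolyase against UVC, and KHDRBS1 by -0.70 ± 0.05 and 0.45 ± 0.05, called under both scalings. KHDRBS1 fell by 0.25 ± 0.05 for active photolyase against control, and EWSR1 was not called (-0.10 ± 0.05, adjusted p = 0.0838 by edgeR).

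**Figure D3:**
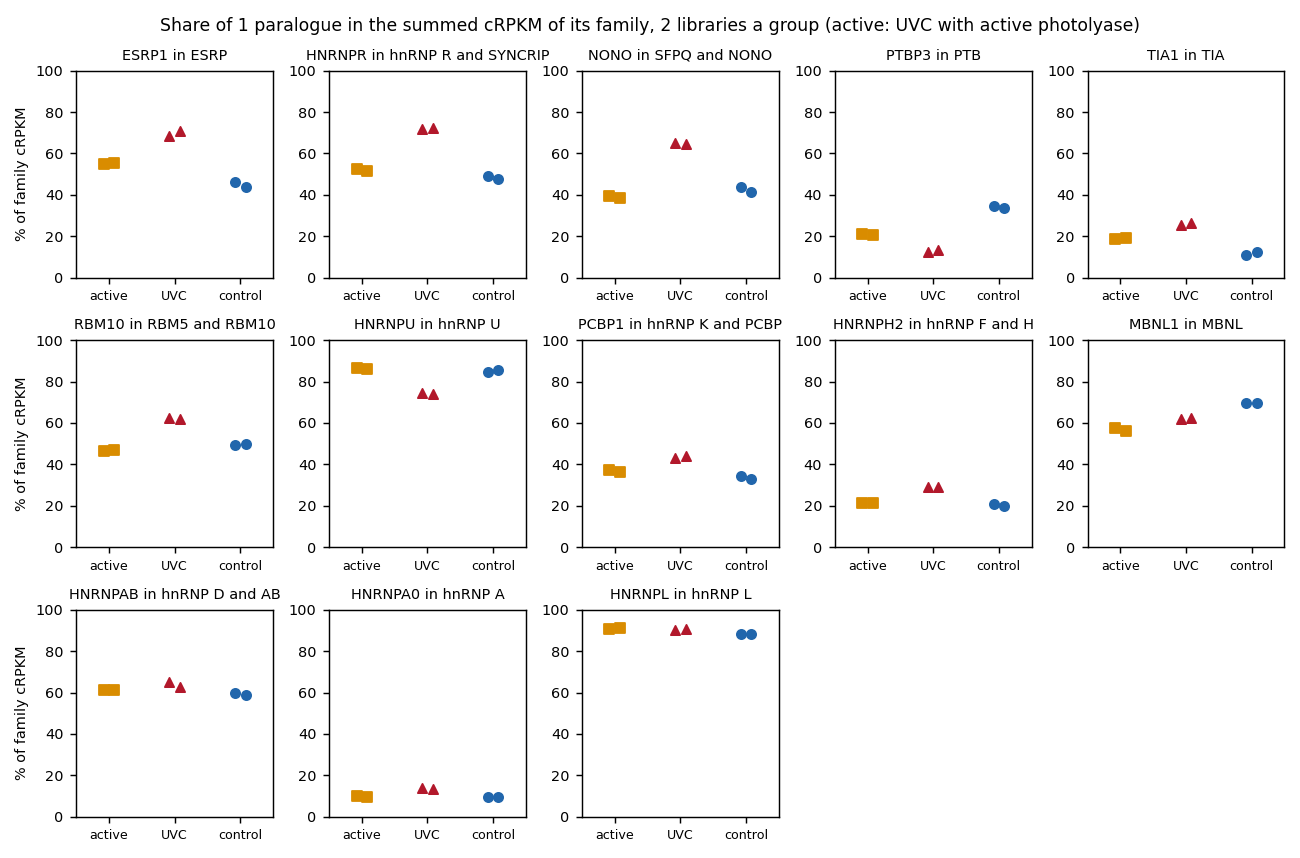
Share of 1 paralogue in the summed cRPKM of its family, in percent, for the member whose mean share changed most between UVC and control in each of 13 families, with 1 point per library and the groups in the order active photolyase, UVC and control. Where a family is a pair of genes, both shares change by the same amount and 1 of them is shown. ESRP1, HNRNPR and NONO have UVC shares of 64.7 to 72.5%, above the 38.5 to 55.5% of the other libraries. PTBP3 has its lowest shares after UVC.

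Shares within a family compare paralogues in the same library, so they do not move with the scaling. Between UVC and control the largest shifts were in ESRP1 (55.3% with active photolyase, 69.7% after UVC and 45.1% in control, means of 2 libraries), HNRNPR (51.8, 72.2 and 48.3%) and NONO (39.0, 64.8 and 42.6%). The next were PTBP3 (21.0, 12.95 and 34.1%) and TIA1 (18.9, 26.1 and 11.7%). In these 5 families the replicates of a group differed by less than the distance between any pair of group means. Both shares of a pair of genes shift by the same amount, so a shift does not tell which gene moved. For UVC against control with TMM factors, SYNCRIP (-1.89) changed more than HNRNPR (-0.41), and SFPQ (-1.21) more than NONO (0.11, not called). ESRP1 (0.91) changed more than ESRP2 (-0.58), and TIA1 (1.03) more than TIAL1 (-0.39). The smallest shifts between UVC and control were in hnRNP L, in which HNRNPL held 90.9% with active photolyase, 90.5% after UVC and 88.1% in control, and hnRNP A, in which HNRNPA0 held 9.89, 13.7 and 9.55%. With active photolyase other hnRNP A shares moved. HNRNPA1 held 42.33 and 41.85% there, 35.2 and 35.3% after UVC and 37.8 and 36.2% in control. HNRNPA2B1 held 29.25 and 29.6% there, 33.3 and 33.3% after UVC and 34.0 and 35.5% in control. For MBNL1 the active photolyase share (56.8%) lay farther from control (69.7%) than the UVC share (62.2%) did.

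The members' genes span 1.75 kb (PCBP1) to 289.69 kb (RBFOX2) in the GENCODE 29 annotation, with a median of 29.41 kb. Across the 44 members Spearman's rho between span and log2 fold change was -0.212 for UVC against control, -0.166 for active photolyase against UVC and -0.587 for active photolyase against control, and across 11728 tested genes with a span it was -0.243, 0.025 and -0.438. The genes were measured in the same libraries and are not replicates of each other. Between active photolyase and control, the 11 members under 15 kb had a median of 0.23, with 8 higher and 1 lower, the 23 of 15 to 50 kb a median of -0.10, with 7 and 11, and the 10 of 50 kb and over a median of -0.45, with 2 and 6. The medians of all genes in these ranges were 0.21, 0.0062 and -0.23. Over all tested genes of any span, 33% were called higher and 32.9% lower in that comparison. The shares called within each range were not taken, so the counts of members are descriptions only. Of the 8 tissue regulators 7 span at least 50 kb, against 3 of the 26 hnRNPs (HNRNPC, PTBP2 and PTBP3), so that list and gene length cannot be told apart. PTBP2 and ESRP1, which span 102.07 and 66.39 kb, rose for active photolyase against control.

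**Figure D4:**
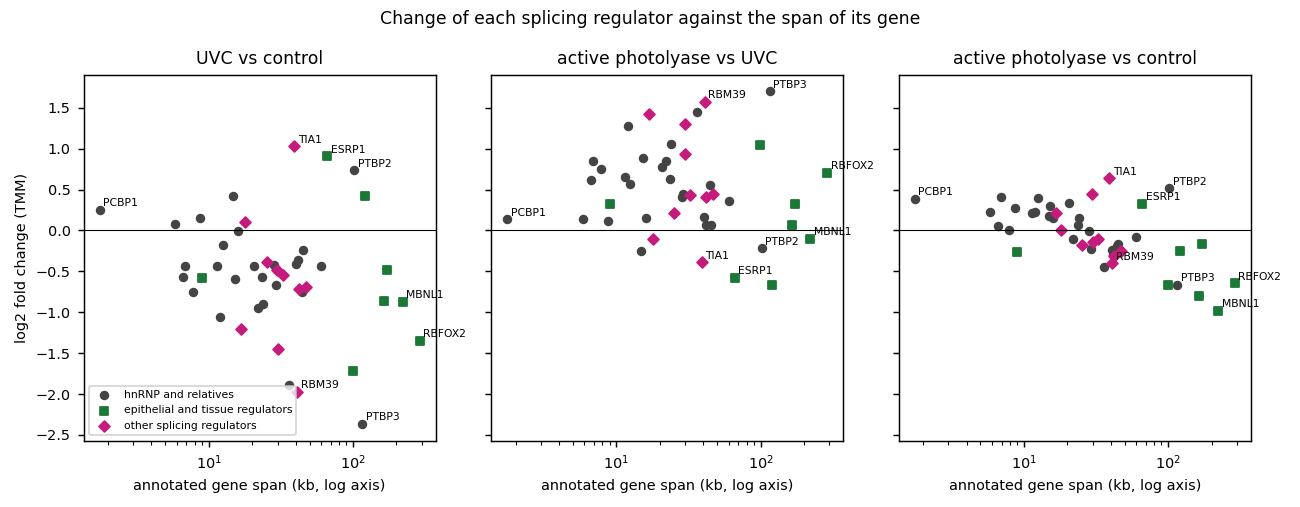
Log2 fold change of each of the 44 members (TMM factors) against the span of its gene in kb on a log axis, 1 panel per comparison, with hnRNPs as circles, epithelial and tissue regulators as squares and other regulators as diamonds. In the panel of active photolyase against control the genes of 50 kb and over lie mostly below 0, with PTBP2 and ESRP1 above it.

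A wider list of 55 splicing regulators that are not members was counted the same way. Of these, 40 passed the filter. For UVC against control 29 fell and 7 rose, beside 43.1% and 42.5% of all tested genes. For active photolyase against UVC 28 rose and 6 fell, beside 39.2% and 39.9%. For active photolyase against control 7 rose and 17 fell, beside 33% and 32.9%. The medians were -0.59, 0.24 and -0.06, beside 0.0041, -0.0375 and 0.0115 over all tested genes. The largest falls after UVC were RBMS1 (-2.27 ± 0.05), RBM47 (-1.85 ± 0.08), a cofactor of RNA editing, and RBM25 (-1.43 ± 0.07), and, CELF6 left aside, the largest rises were PCBP4 (1.31 ± 0.10), a p53-induced relative of PCBP1, and RBM6 (0.64 ± 0.06). CELF6 had 0.912 and 0.784 scaled cRPKM with active photolyase, 1.15 and 1.07 after UVC, and 0.338 and 0.430 in control, so it passed the filter only through the UVC libraries in which it was highest, had to differ, and is given with no fold change. The counts and medians of the wider list still include CELF6, as a rise, a fall and a rise in the 3 comparisons in that order. RBMS1 had 10.5 and 11.1 with active photolyase, 5.10 and 5.18 after UVC and 24.9 and 24.7 in control, in scaled cRPKM. RBMS1 was also lower for active photolyase against control, at -1.20 ± 0.05. The largest rises for active photolyase against UVC were RBM14 (1.34 ± 0.06), the RNA helicase DDX5 (1.31 ± 0.05) and RBM25 (1.31 ± 0.07), and the largest falls PCBP4 (-0.84 ± 0.10), MSI2 (-0.74 ± 0.09) and RBM6 (-0.50 ± 0.06). CELF6 again left aside, RBM15 (0.68 ± 0.07) and RBM14 (0.55 ± 0.06) had the largest rises for active photolyase against control, and RBM47 (-0.88 ± 0.07) and the helicase DDX17 (-0.76 ± 0.06) followed RBMS1 among the falls. RBM6 shares exons with RBM5, which fell after UVC while RBM6 rose, and the reads of the shared exons may be divided between them.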

How the data were processed

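RNA of 6 HaCaT libraries was sequenced, and per the labels' protocols the libraries were prepared by standard TruSeq steps. The submitters' processing notes name Bowtie and hg19. Which annotation was counted, by what rule and with what use of strand is not stated by the sources at hand. The authors deposited counts of whole reads and corrected RPKM values (cRPKM) for 19847 Ensembl genes, of which 354 had no value in any library. The deposited RPKM values equal the count divided by an effective length and the library total, as the values themselves show.

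Symbols were matched to 18698 identifiers. Counts were tested with edgeR 4.0.16 (R 4.3.3, two-sided quasi-likelihood F test, TMM factors, 3 group means over all 6 libraries, 3 residual and 10.03 prior degrees of freedom) on 11926 genes with at least 1 cRPKM in at least 2 libraries. P-values were adjusted by Benjamini and Hochberg over all of them, and a gene was called under 0.05. SEs were taken from the fold change and its F statistic, and the common biological coefficient of variation was 4.62%. The test was also run on simulated counts with few changed genes, as many up as down, so that run does not bear on the scaling. Alternatives were library totals, DESeq2 1.42.0, no filter or 5 cRPKM, limma 3.58.1 on log2(cRPKM + 1) and log2(cRPKM + 0.1), only the 2 groups compared, a replicate block, and leaving out each library.

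The members and lists were chosen with earlier results of these data known. Values in every library were given for the 6 members that rose most and the 6 that fell most in each comparison and for both ends of each paralogue family, and from the wider list the 3 largest rises and falls were named, CELF6 with its levels only. PTBP1 and HNRNPH1 were added to these after their values were seen. Promoters came from RefSeq (GRCh38.p14), and gene spans and overlaps from GENCODE 29. Replicates of a group correlated at r = 0.998 in log2 cRPKM and differed by more than sampling noise (chi-square per degree of freedom of 15.0 with active photolyase, 5.6 after UVC and 24.2 in control).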

Additional observations from a re-analysis of the deposited data

How the results depend on the processing

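With library totals the members called numbered 12 higher and 22 lower for UVC against control, beside 59.5% and 29.7% of all tested genes, and 15 lower for active photolyase against UVC, beside 58.3%. The medians of hnRNPs, tissue regulators and other regulators were then -0.016, -0.305 and -0.20 for UVC against control, followed by 0.26, -0.11 and 0.135 between active photolyase and UVC, then by 0.22, -0.34 and -0.012 between active photolyase and control. With limma on log2(cRPKM + 1), which uses the cRPKM as deposited, calls were 12 higher and 22 lower, 15 lower, and 11 lower in the 3 comparisons, with medians of -0.017, -0.27 and -0.20, 0.255, -0.095 and 0.13, and 0.21, -0.33 and -0.012. With log2(cRPKM + 0.1) calls were 12 higher and 21 lower, 22 higher and 14 lower, and 10 lower, with medians of -0.017, -0.304 and -0.20, 0.26, -0.11 and 0.135, and 0.21, -0.34 and -0.013. Of all genes, limma with either pseudocount called 58.9 to 59.4% higher and 29.3 to 29.6% lower for UVC against control, 27.4 to 27.7% and 57.6 to 58.4% between active photolyase and UVC, and 22.1 to 22.9% lower between active photolyase and control. Neither library totals nor limma applies the TMM factors. Some calls that held with library totals were lost with limma. KHDRBS1 was no longer called for active photolyase against control with either pseudocount (-0.141 and -0.143). With log2(cRPKM + 0.1) EWSR1 lost its call for UVC against control (-0.123) and KHDRBS1 for active photolyase against UVC (0.138). HNRNPR lost its call for active photolyase against control (-0.135) with that pseudocount.

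The same 15 values changed sign under each of these 3 settings. In the order library totals, log2(cRPKM + 1) and log2(cRPKM + 0.1), those for UVC against control were HNRNPK 0.24, 0.24 and 0.24, HNRNPL 0.41, 0.40 and 0.41, HNRNPLL 0.05, 0.043 and 0.048, HNRNPR 0.003, 0.001 and 0.001, HNRNPUL1 0.18, 0.17 and 0.18, and TIAL1 0.03, 0.028 and 0.028. Between active photolyase and UVC they were HNRNPA0 -0.185, -0.18 and -0.18, HNRNPH2 -0.16, -0.16 and -0.16, HNRNPL -0.15, -0.15 and -0.15, HNRNPLL -0.235, -0.21 and -0.23, HNRNPR -0.14, -0.13 and -0.14, HNRNPUL1 -0.24, -0.23 and -0.24, PCBP1 -0.17, -0.17 and -0.17, QKI -0.24, -0.20 and -0.24, and TIAL1 -0.095, -0.091 and -0.093.

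The filter and the samples in the fit also moved medians. With no filter the medians of hnRNPs, tissue and other regulators were -0.525, -0.815 and -0.71 for UVC against control. Those of tissue and other regulators were 0.24 and 0.49 between active photolyase and UVC and -0.50 and -0.17 between active photolyase and control. With 5 cRPKM they were -0.32, -0.75 and -0.50 for UVC against control, 0.47 for hnRNPs and 0.345 for other regulators for active photolyase against UVC, and -0.62 for tissue and -0.10 for other regulators for active photolyase against control. With only the 2 groups compared, those for UVC against control were -0.39, -0.68 and -0.58. The cause of these shifts was not tested. With no filter HNRNPA0 lost its call for UVC against control (0.065), as did HNRNPL (0.102), HNRNPU (0.107) and HNRNPUL2 (0.128) for active photolyase against control. With 5 cRPKM HNRNPK lost its call for UVC against control (-0.056), as did HNRNPA0, HNRNPH2, HNRNPL, HNRNPR and PCBP1 between active photolyase and UVC (0.025 to 0.073). With DESeq2 RBM5 lost its call between active photolyase and control (-0.145). Calls were also gained. With no filter HNRNPD (-0.151) and EWSR1 (-0.149) were called lower for active photolyase against control. With 5 cRPKM HNRNPH2 (0.201) and NONO (0.227) were called for UVC against control, and MBNL1 (-0.201) and NONO (-0.202) between active photolyase and UVC. With only the 2 groups compared these were HNRNPH2 (0.122) and NONO (0.147), and PTBP2 (-0.216) and NONO (-0.105). With a pseudocount of 0.1 the distance between hnRNPs and tissue regulators was 3.098 with active photolyase, 2.697 after UVC and 2.618 in control. Taken from read counts in place of cRPKM, mean shares with active photolyase, after UVC and in control were 48.9, 69.8 and 45.3% for HNRNPR, 31.9, 57.4 and 35.2% for NONO, 37.2, 25.0 and 53.7% for PTBP3 and 33.3, 43.1 and 22.1% for TIA1, and for ESRP1 53.3% with active photolyase and 43.1% in control, since counts are not divided by length.

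Each library was also left out in turn. The medians of hnRNPs, tissue and other regulators then ran from -0.46 to -0.39, -0.74 to -0.68 and -0.62 to -0.58 for UVC against control. Between active photolyase and UVC they ran from 0.486 to 0.605, 0.108 to 0.21 and 0.37 to 0.48. Between active photolyase and control they ran from 0.071 to 0.12, -0.49 to -0.42 and -0.125 to -0.119. For UVC against control HNRNPK lost its call without UVC replicate 2 (-0.17). Between active photolyase and UVC, HNRNPA0 (0.08), HNRNPH2 (0.12), HNRNPL (0.05), HNRNPR (0.13) and PCBP1 (0.105) lost theirs without active photolyase replicate 2, HNRNPA0 and PCBP1 also without any other library of these groups, HNRNPH2 also without UVC replicate 1 or active photolyase replicate 1, and HNRNPL also without either UVC library. Between active photolyase and control, HNRNPL (0.09), HNRNPU (0.15), HNRNPUL2 (0.14), RBM5 (-0.12) and SFPQ (0.16) lost theirs without active photolyase replicate 2, HNRNPM (-0.14), HNRNPUL1 (-0.115) and MBNL2 (-0.11) without active photolyase replicate 1, HNRNPU (0.13), MBNL2 (-0.15) and RBM5 (-0.14) without control replicate 1, and HNRNPL (0.11) and HNRNPUL2 (0.12) without control replicate 2. HNRNPU and RBM5 also lost theirs without active photolyase replicate 1, and HNRNPL without either UVC library. Among values not called, NONO and PTBP2 for active photolyase against UVC were called without either control library, MBNL1 without UVC replicate 1, and NONO for UVC against control without control replicate 1. Without active photolyase replicate 2, HNRNPH2 (0.122) and NONO (0.147) were called for UVC against control and NONO (-0.174) for active photolyase against UVC. Where a group kept 1 library, that library was assumed to vary like the others.

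In a fit with a replicate block the counts of calls were 7 higher and 34 lower, 34 and 4, and 17 and 18 in the 3 comparisons. No call of a member changed. Of all 11926 tested genes, that fit called 5086 higher and 5152 lower, 4690 and 4790, and 3981 and 3956. Deviations of libraries with the same number correlated at 0.181 between active photolyase and UVC, 0.046 between active photolyase and control and -0.019 between UVC and control, so the numbers were not taken to pair the libraries. No fit here bears on the white light, which of the irradiated cells only the active photolyase group received, nor on total RNA per cell. Reads may be shared with pseudogenes for 17 members and with overlapping genes for 24, at any depth.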
